A study of Mus musculus with 16 samples.

Results

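Germ cells of the fetal mouse testis open and close large parts of their regulatory DNA between E13.5, soon after sex determination, and E16.5, when they have entered mitotic arrest. The regions described here were accessible at E13.5 in *Morc1* heterozygous and in *Morc1* knockout germ cells alike and were still listed at E16.5 in the knockout but no longer in the heterozygous cells. They were chosen by peak calls alone: autosomal peaks of the E16.5 knockout list that overlapped no peak of the E16.5 heterozygous list and overlapped, by at least 1 bp, a peak of each E13.5 list. The rule found 1886 regions among the 54786 autosomal peaks of the E16.5 knockout list. Exchanging the genotypes at E16.5 gave 968 regions kept in the heterozygous list only, and these are used throughout as the mirror-image comparison.

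The data are ATAC-seq peaks, places where a transposase could insert sequencing adapters, from male germ cells isolated from testes of mice carrying the Mvh-Venus transgene. There were 8 groups of 2 samples, *Morc1* +/- and *Morc1* -/- at E13.5, E16.5, P0 (day of birth) and P3, and 1 peak list was deposited per group. The comparison genotype was heterozygous, not wild type, so a *Morc1* allele was also lost in the controls. The labels give neither the targeted sequence nor the number of animals per sample. The P0 lists of the 2 genotypes were identical, as were the P3 lists, so P0 and P3 are used as stages without a genotype.

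MORC1 is a nuclear ATPase of the MORC family needed to silence transposons in the male germline, and its loss causes male sterility in mice. ATAC-seq peaks mark promoters, enhancers and other sites where nucleosomes are displaced. In male germ cells of these stages the pluripotency program is shut down, Nodal signalling rises and falls, and DNA methylation is rebuilt after its earlier erasure.

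With 1 list per group, no result has a spread between samples and no test across samples was possible. Peaks carried no height, so a weak and a strong peak count alike, and read depth is unknown. Ranges after a share or ratio are 95% Wilson intervals, or Newcombe intervals for a difference of shares. They cover counting error over regions only, and neighbouring regions are not independent. The E16.5 heterozygous list was the shorter one, with 51706 autosomal peaks. Of the knockout peaks at E16.5, 23.4% were absent from the heterozygous list, and 18.8% the other way round. Unequal depths or thresholds of the lists and the genotypes themselves cannot be told apart. The cell label was checked at gene starts: of 7 germ-cell markers with a start in the gene table, 5 had a peak in either E16.5 list, among them *Ddx4*, *Dazl*, *Mael*, *Sycp3* and *Pou5f1*, whereas *Nanos2* and *Nanos3* had none. None of 4 blood markers had one. Starts of somatic markers had peaks as well. In both E16.5 lists this held for 3 of 4 Sertoli and 3 of 4 endothelial markers with a start in the gene table. Of 7 Leydig or interstitial markers, 4 had one in the heterozygous and 3 in the knockout list. A peak at a start does not show expression, and these counts do not separate germ cells from Sertoli or endothelial cells. The part of somatic cells in the results was not tested.

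Promoter windows that overlapped these regions are shown first, because they hold DNA whose listing differed between the genotypes at E16.5. Each runs from 250 bases before to 50 bases after an annotated gene start, 5′ to 3′ on the gene's strand (RefSeq, GRCm38.p6, the build named mm10 in the submitters' notes). Capitals mark matches, on either strand, to 12 short motifs searched for. They were the GC box (GGGCGG), the CCAAT box (CCAAT) and the motifs of ETS factors (CCGGAAG), of CREB (TGACGT), of E-box proteins (CACGTG), of NRF1 (GCGCATG) and of TFAP2 (GCCNNNGGC). The others were the octamer of POU factors (TTTGCAT), the SOX motif (ACAATG), a nuclear receptor half-site (AAGGTCA), a FOXH1 motif (GTGGATT) and AP-1 (TGANTCA). No motif contains another, but matches can share letters. *Nanog* and *Nodal* are shown as the listed genes with a kept region at their own annotated start, and *Oxld1*, *Hspb8*, *Pcsk6* and *Grm2* as the windows lying wholly inside regions whose peak centres were nearly the same in both E13.5 lists and the E16.5 knockout list.

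The windows, each with its position and strand, read as follows.
*Nanog*, chr6:122707239-122707538, plus strand: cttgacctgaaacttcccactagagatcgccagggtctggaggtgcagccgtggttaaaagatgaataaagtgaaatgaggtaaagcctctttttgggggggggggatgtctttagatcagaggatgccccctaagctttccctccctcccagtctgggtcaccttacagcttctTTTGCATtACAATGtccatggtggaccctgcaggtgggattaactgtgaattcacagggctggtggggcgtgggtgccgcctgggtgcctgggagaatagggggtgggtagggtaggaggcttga
*Nodal*, chr10:61417722-61418021, plus strand: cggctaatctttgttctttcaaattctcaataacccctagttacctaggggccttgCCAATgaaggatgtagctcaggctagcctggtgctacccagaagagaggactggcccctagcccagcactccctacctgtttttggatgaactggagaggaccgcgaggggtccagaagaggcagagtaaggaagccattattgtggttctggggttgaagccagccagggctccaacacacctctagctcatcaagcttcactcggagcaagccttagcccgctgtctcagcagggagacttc
*Oxld1*, chr11:120458021-120458320, minus strand: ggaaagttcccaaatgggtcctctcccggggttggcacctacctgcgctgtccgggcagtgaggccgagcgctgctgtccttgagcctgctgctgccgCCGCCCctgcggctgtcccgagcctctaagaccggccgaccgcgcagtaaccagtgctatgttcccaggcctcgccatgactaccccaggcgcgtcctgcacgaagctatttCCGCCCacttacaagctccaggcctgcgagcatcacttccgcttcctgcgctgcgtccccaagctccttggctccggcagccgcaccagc
*Hspb8*, chr5:116422815-116423114, minus strand: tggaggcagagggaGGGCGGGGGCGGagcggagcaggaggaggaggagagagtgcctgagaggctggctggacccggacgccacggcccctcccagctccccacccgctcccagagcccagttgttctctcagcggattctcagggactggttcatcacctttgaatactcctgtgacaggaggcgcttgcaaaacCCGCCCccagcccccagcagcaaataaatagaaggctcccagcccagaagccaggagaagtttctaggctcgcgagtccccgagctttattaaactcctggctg
*Pcsk6*, chr7:65861886-65862185, plus strand: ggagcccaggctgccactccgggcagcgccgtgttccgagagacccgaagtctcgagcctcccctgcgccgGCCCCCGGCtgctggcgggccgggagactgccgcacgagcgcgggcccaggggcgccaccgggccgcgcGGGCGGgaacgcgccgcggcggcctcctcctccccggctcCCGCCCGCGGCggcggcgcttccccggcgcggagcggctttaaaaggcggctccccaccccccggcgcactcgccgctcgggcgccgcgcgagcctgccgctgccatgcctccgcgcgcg
*Grm2*, chr9:106656060-106656359, minus strand: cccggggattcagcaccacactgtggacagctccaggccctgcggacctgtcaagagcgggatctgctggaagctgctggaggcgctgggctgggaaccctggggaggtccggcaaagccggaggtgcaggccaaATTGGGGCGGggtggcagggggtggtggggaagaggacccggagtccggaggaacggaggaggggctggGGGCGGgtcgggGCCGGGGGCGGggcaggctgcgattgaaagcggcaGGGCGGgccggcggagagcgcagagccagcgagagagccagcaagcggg

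All 300 bases of the *Nanog*, *Oxld1*, *Hspb8*, *Pcsk6* and *Grm2* windows lay inside a kept region, and 20 bases of the *Nodal* window did, since the *Nodal* region extends from its start into the gene. The *Nanog* window holds 1 octamer match, beginning 75 bases before the start, and 1 SOX match, beginning 67 bases before it, with 1 base between them. It has 4 CpG dinucleotides. The *Nodal* window holds 5 CpG and a CCAAT match, which lies outside the kept region. The *Oxld1* window has 24 CpG and 2 GC boxes, *Hspb8* has 13 CpG and 3 GC boxes, *Pcsk6* has 52 CpG and 2 GC boxes, and *Grm2* has 22 CpG and 4 GC boxes. Windows of the other starts with such close peak centres, not shown, had 20 CpG at *Eapp*, 7 at *Akr1b10*, 7 at *Adra2c* and 6 at *Tmem160*. Of these windows 141, 211, 0 and 174 bases, respectively, lay inside the kept region. High CpG counts were thus not common to all of these windows, but the counts include bases outside the regions, at *Adra2c* only such bases.

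Genes were examined from lists of pluripotency, primordial germ cell, fetal male fate, cell cycle, transposon-silencing, meiotic and spermatogonial genes and of cell type markers. A gene counts when a region overlaps it or lies within 1000 bp of it. Of the 169 listed autosomal protein-coding genes, 8 had a region kept in the knockout only. Over all 20665 autosomal protein-coding genes the share was 4.65%, so the listed genes as a whole stood at the background. Regions kept in the heterozygous list only met 3 listed genes (*Smad3*, *Cdk6* and *Fshr*), against 2.7% of all genes. Among the pluripotency genes, 3 of 27 had a region kept in the knockout only, namely *Nanog*, *Sall4* and *Esrrb*, and 0 of 27 had one kept in the heterozygous list only. The other lists held 1 of 18 primordial germ cell genes (*Bmp4*), 1 of 15 fetal male fate genes (*Nodal*), 2 of 20 cell cycle genes (*Rb1* and *Cdk6*) and 1 of 31 transposon-silencing genes (*Ehmt2*). None of the 27 meiotic and spermatogonial genes and none of the germ-cell, Sertoli, Leydig, endothelial or blood markers had one.

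*Nanog* encodes a homeodomain factor of the core pluripotency network. Its region lay at the start of the gene, with its centre at -193 bp relative to the nearest annotated start. It was listed at chr6:122707116-122707616 in E13.5 heterozygous cells and at chr6:122707099-122707599 in the knockout cells of that stage. At E16.5 it stood at chr6:122707046-122707546 in the knockout. The nearest E16.5 heterozygous peak was 12332 bp away, and the nearest P0 and P3 peaks were 3986 and 4124 bp away. This was the only peak within 1000 bp of *Nanog* in any list, so the gene had 1 peak in each of 3 lists and 0 in the other 3.

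*Sall4* encodes a zinc finger factor of pluripotent and germ cells. The region at its upper outer end was listed at chr2:168766905-168767405 in E16.5 knockout cells, at chr2:168766913-168767413 in E13.5 heterozygous and at chr2:168766919-168767419 in the E13.5 knockout list. Unlike the *Nanog* region it was present again at P0 (chr2:168766892-168767392) and P3 (chr2:168766906-168767406), so that the E16.5 heterozygous list was the only one without it. That list had no peak at all within 1000 bp of *Sall4*, and its nearest peak lay 25148 bp away. A second *Sall4* peak, inside the gene, was found in both E13.5 lists and at P0 and P3 but in neither E16.5 list. The centre of the kept region also lay 1012 bp downstream of the start of *Gm14261*, another annotated gene.

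*Nodal*, the TGF-beta family ligand that acts in male germ cells of this age, had its region just inside the gene, with the centre 280 bp downstream of the start (chr10:61418002-61418502 in E16.5 knockout cells). It was also listed at P0 and not at P3. A further peak about 5 kb into the gene was present in the E16.5 lists of both genotypes and at P0. The heterozygous list therefore lacked the peak at the start and held the internal one. *Esrrb* encodes an orphan nuclear receptor of the pluripotency network. Its region (chr12:86402635-86403135) lay inside the gene's outer bounds, at -18759 bp relative to the nearest annotated start, and was present in all 5 lists other than the E16.5 heterozygous one. Within 1000 bp of *Esrrb* the E16.5 heterozygous list held 3 peaks and the knockout list 5.

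**Figure D1:**
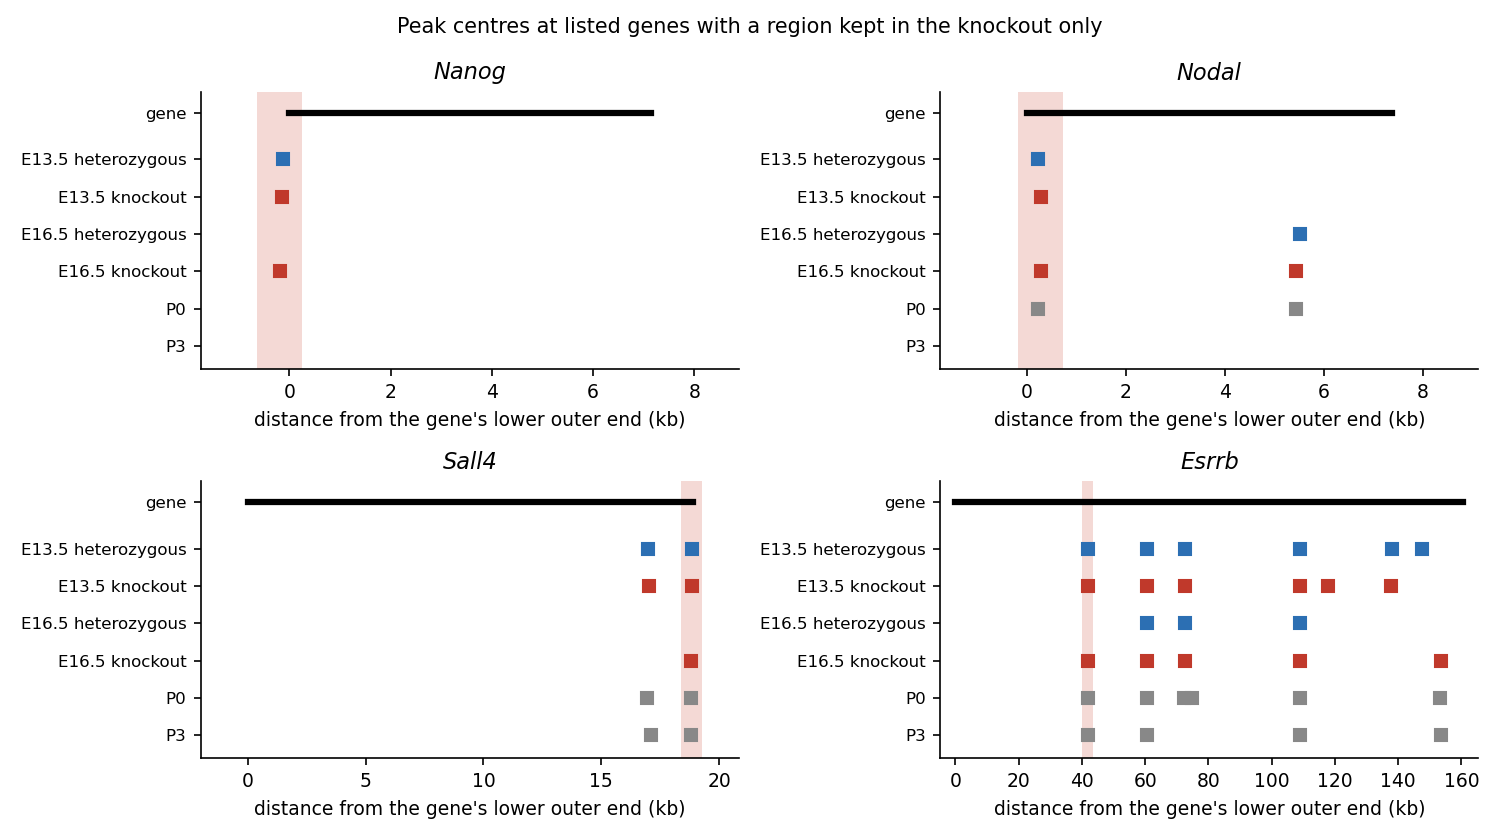
Peak centres (squares) in the 6 distinct lists at 4 listed genes, by distance from the gene's lower outer end in kb. The black bar is the gene and the shaded band marks the surroundings of the region kept in the knockout only. The E16.5 heterozygous row is empty in each band, and the P0 and P3 rows are filled in the bands of *Sall4* and *Esrrb* but not of *Nanog*.

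The 4 remaining listed genes had their regions inside the gene, but 2 of these regions lay at the start of another gene. In *Bmp4*, a ligand needed to form primordial germ cells, the region (chr14:46387208-46387708) was 3211 bp downstream of the start of *Bmp4* and was listed at P0. Its centre was at -20 bp relative to the start of *Gm15222*, an annotated gene on the other strand. *Ehmt2* encodes the H3K9 methyltransferase G9a, and its region (chr17:34911965-34912465) was absent at P0 and P3. The regions in *Rb1*, the retinoblastoma cell cycle inhibitor (chr14:73238208-73238708), and in *Cdk6*, a kinase of G1 progression (chr5:3466267-3466767), were listed at P3 and not at P0. In *Rb1* the E16.5 knockout peak overlapped the E13.5 peaks only in part, since these lay at chr14:73237793-73238293 and chr14:73237761-73238261. Its overlap with the P3 peak, at chr14:73237734-73238234, was smaller still. The *Rb1* region also lay 567 bp downstream of the start of *Lpar6*, a lysophosphatidic acid receptor gene within *Rb1*. *Cdk6* also held a region of the opposite kind (chr5:3363414-3363914), so this gene had 1 of each.

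The genes with the most kept regions were *Ablim1*, *Arhgap15* and *Cdh13*, with 4 each, followed by *Tex14*, *Kcnj6*, *Nav3*, *Nrxn3*, *Sugct* and the chromosome 18 gene *Gm37013* with 3 each. No gene had 3 regions kept in the heterozygous list only, but that set was smaller (968 regions against 1886). The 9 genes are mostly long: *Cdh13* spans 1185 kb, *Nrxn3* 1612 kb and *Sugct* 837 kb, and a longer gene can meet more regions of any kind. *Tex14*, which encodes a component of the intercellular bridges that join dividing germ cells, is the shortest of the 9 at 151 kb. Its 3 regions lay 38537, 44203 and 57683 bp downstream of its start. Each of the 3 was also listed at P3 and none at P0. Over the 30 regions in these 9 genes, 9 were listed at P0, 12 at P3 and 14 at neither stage.

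Along the genome, the 1886 regions fell in 1133 windows of 1 Mb and the 968 regions of the opposite kind in 760. Windows with 4 or more numbered 75 and 8, respectively. The fullest window, at 38 to 39 Mb of chromosome 18, held 8 kept regions and 3 of the opposite kind among 28 E16.5 knockout peaks. Chromosome 11 from 87 to 88 Mb, which includes *Tex14* and *Rad51c*, and chromosome 14 from 66 to 67 Mb, which includes *Adam2*, held 7 each. A further 4 windows held 6: chromosome 7 from 127 to 128 Mb, chromosome 11 from 53 to 54 and from 70 to 71 Mb, and chromosome 15 from 97 to 98 Mb. In 5 of these 7 windows no region was kept in the heterozygous list only, but the windows were picked for holding the most kept regions.

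What became of the common E13.5 regions at E16.5 is given next, as a description. Of 30946 autosomal regions listed in both genotypes at E13.5, 61.5% were found in both E16.5 lists and 29.1% in neither. The knockout list alone kept 6.201% (5.94 to 6.48) and the heterozygous list alone 3.19% (2.996 to 3.39). Put differently, of the 10921 common regions missing from the E16.5 heterozygous list, 17.6% (16.9 to 18.3) were held in the knockout. Of the 9988 missing from the E16.5 knockout list, 9.87% (9.30 to 10.5) were held in the heterozygous cells. These shares use the lists that chose the regions and are descriptions.

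The knockout list was the longer one, and over all peaks knockout-only peaks outnumbered heterozygous-only peaks by a ratio of 1.32 (1.28 to 1.35). The ratio was not the same for all of them. Among peaks in neither E13.5 list it was 1.20 (1.17 to 1.24), from 9601 and 7974 peaks. Among those in 1 E13.5 list it was 1.69 (1.55 to 1.85). In the regions of both E13.5 lists it was 1.95 (1.80 to 2.105). For peaks held at E13.5 by a single genotype, the ratio was 1.80 (1.59 to 2.05) where that was the heterozygous and 1.59 (1.41 to 1.80) where it was the knockout. Regions of both E13.5 lists made up 14.7% of knockout-only peaks and 9.97% of heterozygous-only peaks, and with regions of 1 E13.5 list added the shares were 24.96% and 17.9%. These ratios and shares are made from the lists that chose the regions, so they describe the choice and support nothing beyond it, and their intervals cover counting error only.

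**Figure D2:**
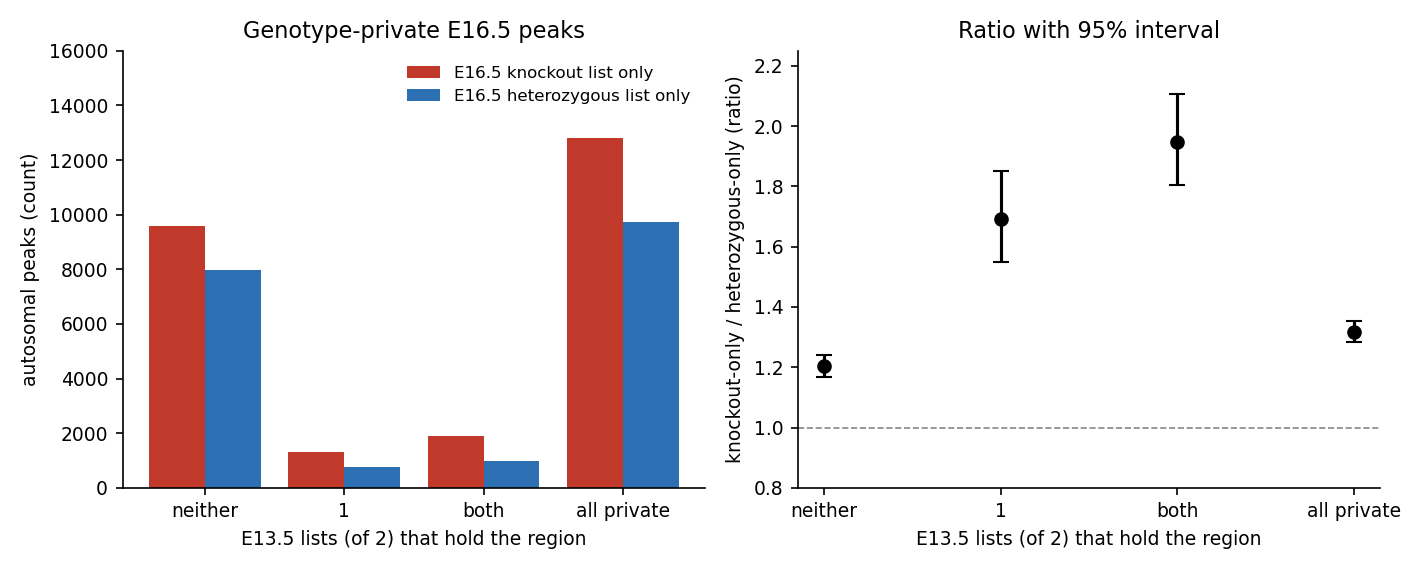
Left, counts of E16.5 peaks found in 1 genotype only, by the number of E13.5 lists that hold them. Right, the ratio of the 2 counts (knockout over heterozygous) with its 95% interval, which goes from 1.20 for peaks in neither E13.5 list to 1.95 for regions in both. The last position on each axis is all such peaks together, and the dashed line marks equal numbers.

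By autosome the same counts, again a description made from the lists of the rule, were as follows. Kept regions outnumbered their counterparts on 19 of 19, and on 19 of 19 their ratio was above that of peaks in neither E13.5 list. The ratio ran from 1.19 on chromosome 1 (94 and 79 regions) and 1.29 on chromosome 3 to 2.75 on chromosome 18 (88 and 32) and 3.45 on chromosome 15 (100 and 29, interval 2.29 to 5.20). On chromosome 12 the ratio of 1.33 was close to the 1.26 of peaks absent at E13.5. Chromosome 11 was high on both measures, at 2.37 and 2.01. Relative to all E16.5 knockout peaks, kept regions were densest on chromosome 11, at 72.9 per 1000, and on chromosome 18, at 64.5, and sparsest on chromosomes 1 and 3, at 20.8 and 20.95.

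**Figure D3:**
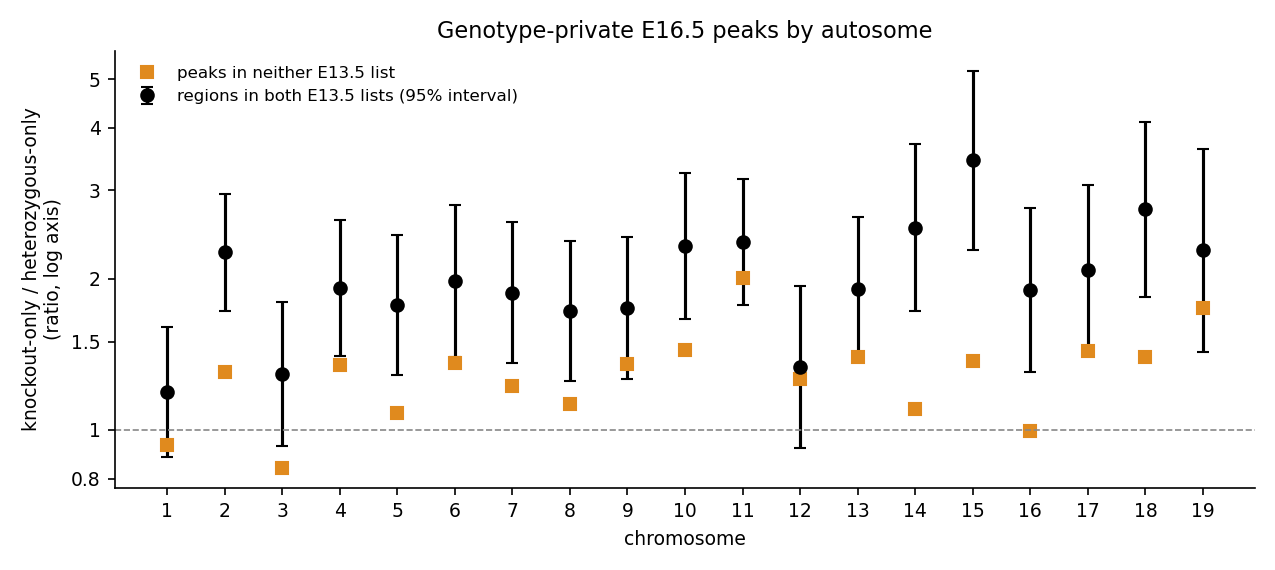
E16.5 peaks found in the knockout only divided by those found in the heterozygous list only, on each autosome, on a log axis. Black points with 95% intervals are regions of both E13.5 lists and orange squares peaks in neither. The black point is above the orange square on all 19 autosomes, by least on chromosome 12.

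The P0 and P3 lists took no part in choosing the regions and show which of them were listed at a later stage, but not in which genotype. Whether each of these lists was a joint call or came from a single genotype is not known, which limits the comparison of the kinds. Of the regions kept in the knockout only, 51.1% (48.9 to 53.4) were listed at P0 and 50.1% (47.9 to 52.4) at P3. Of those kept in the heterozygous list only, 51.0% (47.9 to 54.2) and 48.3% (45.2 to 51.5) were. The differences were 0.08 points (-3.79 to 3.95) at P0 and 1.76 points (-2.11 to 5.62) at P3, and both intervals include 0. The P3 difference was larger under 3 other rules: 3.41 points (-0.51 to 7.31) when peaks within 500 bp counted as shared, 3.11 (-1.02 to 7.21) for regions at least 1000 bp from the other genotype's peaks, and 3.59 (0.70 to 6.46), an interval above 0, when either E13.5 list sufficed. Both kinds stood between the E13.5 regions kept in both genotypes, with 92.2% at P0 and 90.5% at P3, and those lost from both, with 9.55% and 15.2%.

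Presence at both later stages separated the kinds by more. All 5 lists other than the E16.5 heterozygous one held 719 of the 1886 regions (38.1%), among them those of *Sall4* and *Esrrb*. The mirror-image number was 318 of 968 (32.9%), a difference of 5.27 points (1.55 to 8.91). Presence at P0 without P3, as at *Nodal* and *Bmp4*, was rarer in the knockout-only regions, at 12.99% against 18.2% (difference -5.19 points, -8.12 to -2.39). Presence at P3 without P0, as at *Cdk6*, *Tex14* and, by a small overlap, *Rb1*, was found in 11.98% against 15.5% (difference -3.51 points, -6.30 to -0.87). That last interval reached 0.84 when peaks within 500 bp counted as shared and 0.50 when only regions at least 1000 bp from the other genotype's peaks were counted. Neither stage held 36.9% of the knockout-only regions, *Nanog* and *Ehmt2* among them, against 33.5% (difference 3.43 points, -0.28 to 7.08), and this difference was -0.43 points when either E13.5 list sufficed. In all, 6 such comparisons were made.

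The count ratio can be read within each pattern. It was 2.26 (1.98 to 2.58) for regions listed at both later stages and 2.15 (1.88 to 2.45) for regions listed at neither. For those at P0 only it was 1.39 (1.15 to 1.69), and for those at P3 only 1.51 (1.23 to 1.85). The corresponding ratios for peaks absent at E13.5 were 1.62, 1.12, 1.16 and 1.21. The widest gap between the 2 was therefore in regions seen at neither later stage, where 2.15 stood against 1.12 (1.08 to 1.17). Knockout-only peaks absent at E13.5 reached P0 in 48.3% of cases, 2.79 points (0.32 to 5.25) fewer than the kept regions. They reached P3 in 21.1%, 29.0 points (26.6 to 31.4) fewer. The mirror-image sets differed in the same direction. Heterozygous-only peaks absent at E13.5 reached P0 in 44.8% and P3 in 16.4% of cases, against 51.0% and 48.35% of regions kept in the heterozygous list only.

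**Figure D4:**
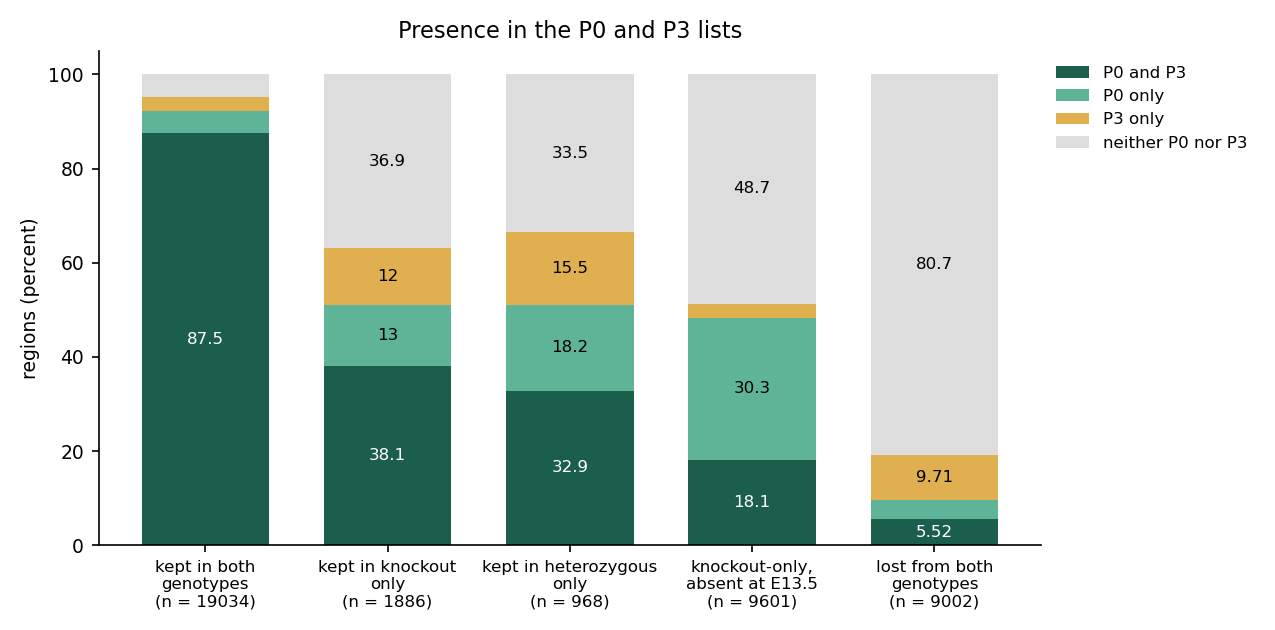
Share of regions listed at P0 and P3, in percent, for 5 sets of autosomal regions. The sets kept in 1 genotype only lie between those kept in both (87.5% at both later stages) and those lost from both (80.7% at neither), and the kept-in-knockout set has 38.1% at both later stages against 32.9%.

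Kept regions were mostly away from promoters. On the 18 autosomes for which starts were at hand (all but chromosome 18), 16.7% (15.1 to 18.5) lay within 1000 bp of an annotated gene start, 48.1% elsewhere within or beside a gene and 35.2% between genes. For the regions of the opposite kind the shares were 18.8% at starts (difference -2.06 points, -5.17 to 0.91) and 34.0% between genes (difference 1.23 points, -2.55 to 4.94), and both intervals include 0. With reciprocal overlap of 50% the difference at starts was -4.17 points (-7.42 to -1.01), below 0. The difference between genes turned to -0.25 points when peaks within 500 bp counted as shared and to -0.66 points for regions at least 1000 bp from the other genotype's peaks. E13.5 regions kept in both genotypes lay at starts in 50.7% of cases and those lost from both in 6.61%. The 2 kinds stood in a ratio of 1.71 (1.42 to 2.06) at starts, 1.96 within or beside genes and 1.99 (1.74 to 2.28) between genes, against 1.34, 1.26 and 1.15 for peaks absent at E13.5. Regions at starts recurred more often: 76.1% (70.95 to 80.6) were listed at P0 and 66.1% at P3, against 45.8% (43.3 to 48.4) and 46.4% of the regions elsewhere. The mirror-image set had the same pattern, with 68.75% and 63.1% at starts against 46.97% and 44.7% elsewhere.

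Peak centres lay further apart between lists in these regions than in those kept by both genotypes. The centres in the E13.5 heterozygous, E13.5 knockout and E16.5 knockout lists spanned a median of 81 bp (quartiles 45 and 136), against 52 bp for regions kept in both. Within E13.5 alone the centres of the genotypes differed by a median of 35 bp, against 23 bp. The mirror-image set had medians of 88 and 32 bp.

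At 227 of the kept regions a protein-coding gene start was within 1000 bp. The 8 whose centres agreed best, within 4 to 9 bp, were at *Oxld1*, *Hspb8* (a small heat shock protein), *Eapp*, *Akr1b10*, *Pcsk6* (a proprotein convertase that can process Nodal), *Tmem160*, *Adra2c* (an alpha-2 adrenergic receptor) and *Grm2* (a metabotropic glutamate receptor). All 8 were listed at P0 and 7 at P3, the exception being *Tmem160*. At *Oxld1* and *Hspb8* the span was 4 bp. The *Oxld1* region also lay at the start of *Ccdc137*. The *Hspb8* centre was nearer to the start of *Gm42009* (-51 bp) than to that of *Hspb8* (-78 bp). Likewise the *Pcsk6* centre was nearer to the start of *Gm20684* (58 bp) than to that of *Pcsk6* (-152 bp). Some of these starts were not without heterozygous peaks nearby: an E16.5 heterozygous peak lay 221 bp from the *Tmem160* region, 364 bp from that at *Pcsk6* and 388 bp from that at *Eapp*. It was 1280 bp away at *Adra2c* and 1763 bp away at *Grm2*. At *Hspb8*, *Oxld1* and *Akr1b10* the nearest was 9741, 8964 and 11768 bp away.

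Such near neighbours bear on the rule, since fixed-width intervals that just miss each other count as different. The gap to the nearest E16.5 heterozygous peak had a median of 14390 bp and ranged from 0 bp, at chr1:132190018-132190518, to 522219 bp, at chr13:120313422-120313922. It was under 50 bp in 26 regions. On the other side of the threshold, 22 regions of both E13.5 lists overlapped a heterozygous peak by under 50 bp and were left out, the smallest overlap being 2 bp. A heterozygous peak lay within 1000 bp of 7.53% of the kept regions, and a knockout peak within 1000 bp of 14.2% of the opposite kind. At gene starts the shares were 21.3% and 37.5%. Without these regions the ratio was 2.10 (1.93 to 2.28) and the share at starts 14.3% against 13.7%, in place of 16.7% against 18.8%. Presence at both later stages was then 37.7% against 32.4%.

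The promoter windows met by these regions were poorer in CpG than those of regions kept in both genotypes. The 261 windows, of 235 genes, had a median GC content of 58.0% (interval 56.0 to 59.0) and 14 CpG dinucleotides per 300 bases (12 to 16). Windows in regions kept in both had 63.3% and 23 CpG, those in regions lost from both 53.8% and 8, and all autosomal windows 53.0% and 7. Windows kept in the heterozygous list only (164 windows) had 60.0% and 17.5 CpG (15 to 20). When regions within 1000 bp of the other genotype's peaks were left out, the medians were 12 and 12.5 CpG for the 2 kinds.

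Of the 12 motifs, the GC box occurred in 51.3% (45.3 to 57.3) of the windows kept in the knockout only and in 67.1% (59.6 to 73.8) of those kept in the heterozygous list only (difference -15.7 points, -24.8 to -6.12). It was in 71.5% of windows kept in both and in 36.0% of all windows. The NRF1 motif was in 2.299% against 8.54% (difference -6.24 points, -11.7 to -1.96), with 3.91% of all windows, and the ETS motif in 9.96% against 17.1% (difference -7.11 points, -14.3 to -0.57), with 9.004% of all windows. The CCAAT box went the other way, at 35.6% against 23.2% (difference 12.5 points, 3.5 to 20.8), with 37.3% of all windows. For the other 8 motifs the interval of the difference included 0. Without regions within 1000 bp of the other genotype's peaks the ETS difference was -7.16 points with an interval that included 0 (-16.4 to 0.78), whereas the intervals for the GC box, the CCAAT box and NRF1 still left out 0. The octamer was in 6.13% and the SOX motif in 6.51% of the windows kept in the knockout only, against 4.68% and 12.2% of all windows. Windows holding both, as at *Nanog*, were not counted. Overlapping windows of alternative starts count separately in these shares. Motif, GC and CpG values are for whole windows, which a region may overlap only in part. A match can therefore lie outside the region, as the CCAAT match at *Nodal* does.

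**Figure D5:**
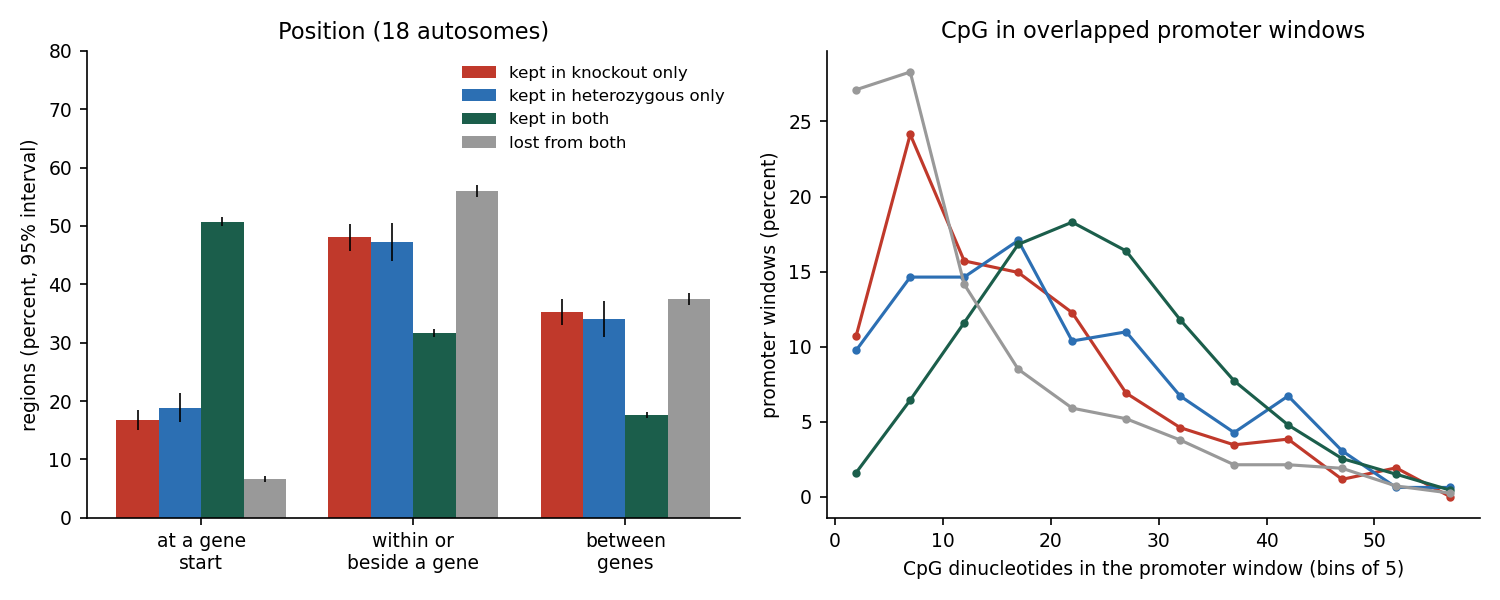
Left, share of regions at gene starts, within or beside genes and between genes, with 95% intervals, for 4 outcomes of E13.5 regions. Right, distribution of the number of CpG dinucleotides (bins of 5, up to 59) in the promoter windows each set overlaps. The kept-in-knockout set has 16.7% at starts against 50.7% for regions kept in both, and a median of 14 CpG against 23.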

How the data were processed

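The authors deposited 8 ATAC-seq peak lists, 1 per stage and genotype, each holding only the chromosome, start and end of peaks, nearly all 501 bp wide. Per the submitters' processing notes the build was mm10, and the tools were bcl2fastq 2.20, cutadapt 1.18, Bowtie2 2.3.4.1, deepTools 3.5.0 and HOMER 4.10. The role of each tool, the peak threshold and the pooling of replicates are not given in the sources used here. No list belongs to 1 sample.

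Overlaps were computed in Python 3.11.15 with pandas 2.3.3 and numpy 2.4.6, checked against bedtools 2.31.1 (1886 and 968 regions by both) and tested on simulated data. Shares have Wilson intervals (statsmodels 0.14.6). Gene bounds, starts and promoter windows came from RefSeq tables of GRCm38.p6. Start positions on chromosome 18 were not used here. The exact start and sequence of *Sall4* were likewise not used. Motifs were matched as exact letters.

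The regions, gene lists, motifs and comparisons were chosen with earlier results of these data known. The text names listed genes with a kept region, the genes and 1 Mb windows holding most (ties included), the 8 regions at coding starts with the closest centres, and the smallest and largest gap. *Dnmt3c* (a pseudogene in the table) and genes of the sex chromosomes were not counted. Alternatives were a reciprocal overlap of 50%, a distance of 500 bp, either E13.5 list, all chromosomes, other gene windows and protein-coding genes only.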

Additional observations from a re-analysis of the deposited data

How the results depend on the processing

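No paired analysis was possible because the peaks of the samples of a group were deposited as a single list, which also leaves no replicate to take out. A stricter threshold was not run, as the peaks carry no score. Of 83 recomputed values, 53 stayed inside the interval of the reported one (or, for counts, within 1.5 times it) and 30 moved. The ratio of the 2 kinds of region stayed between 1.83 and 2.10 under all 5 alternatives run on it, 1 of them (regions at least 1000 bp from the other genotype's peaks) added after seeing the data. Over regions in neither E13.5 list it was 1.184 with reciprocal overlap, 1.215 within 500 bp and 1.235 over all chromosomes.

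Below, the knockout-only value comes first and the heterozygous-only value second. With either E13.5 list in place of both, counts rose to 3193 and 1740 by construction, presence at P3 fell to 44.6% and 41.0%, presence at P0 was 47.8% in the heterozygous-only set, gene starts were 13.9% and 15.9%, and 37.9% of knockout-only regions lay between genes. With reciprocal overlap, gene starts were 20.7% and 24.8%, heterozygous-only regions between genes 30.5%, and the knockout-only GC content 59.3%. Within 500 bp, gene starts were 14.8% and 15.2%, and heterozygous-only regions between genes 37.3%. A start window of 500 bp gave 14.96% for the knockout-only set. Protein-coding genes only gave 12.6% and 15.1% at starts and 49.05% and 45.7% between genes. Of the E13.5 common regions, reciprocal overlap left 59.4% in both lists, 6.69% in the knockout only, 3.64% in the heterozygous only and 30.3% in neither, and the 500 bp distance gave 63.0% in both and 27.9% in neither. Of the 169 listed genes, those with a region numbered 3 and 1 at gene ends alone, and 18 and 6 within 10000 bp. Over all 20665 autosomal protein-coding genes the numbers were 343 and 190 at gene ends, and 1446 and 847 within 10000 bp. A wider or narrower window moves these counts by construction, and for the other moves the cause was not tested. Without peak heights or read counts, depth limits every presence call by an unknown amount.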
